A study of Mus musculus with 11 samples.

Results

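The apolipoprotein genes Apoa1, Apoa2, Apoa4, Apoa5, Apob, Apoc1, Apoc2, Apoc3, Apoe and Apoh were followed in mouse liver from mid-gestation to the adult. They were taken by symbol from the gene column of the array files with control spots left out, which gave 10 of 27962 genes on the array, read by 16 of 41174 probes. All 10 were among the 16702 genes that passed the filter on dim probes. RNA of normal, untreated liver was measured at embryonic day 14 (E14, 3 arrays), embryonic day 18 (E18, 3 arrays), postnatal day 5 (P5, 2 arrays, replicates 2 and 3) and postnatal day 56 (P56, 3 arrays), and the labels call the arrays biological replicates. Each array carried liver RNA labelled with Cy5 beside 1 common reference, a commercial RNA of normal adult mouse liver, labelled with Cy3, and no dyes were swapped. The labels give whole liver as the source and describe the cells as hepatoblasts at E14, immature hepatocytes at E18 and hepatocytes after birth. The series text speaks of isolated cells as well, so these sources do not settle whether an embryonic array holds whole liver or purified cells, and they give no strain or sex. In bulk RNA, fewer cells of a type and less RNA per cell cannot be told apart.

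Every level below is a log2 ratio of liver RNA to the adult reference after background correction and loess normalization within each array, so 0 is the level of the reference and values below 0 are lower than it. Differences between stages are log2 fold changes from limma with their standard error (SE) and a p-value adjusted by the Benjamini-Hochberg method over all genes tested, and a gene was called at an adjusted p of 0.05. Between 16790 and 25718 spots per array stood well above background in Cy5, with the lowest count on P56 replicate 2. Correlations between replicate arrays across the genes tested were 0.988 to 0.990 at E14 and 0.969 to 0.985 at E18. They were 0.902 at P5 and 0.828 to 0.938 at P56, so P56 replicates spread most. Missing values were first filled with the mean of the stage. The arrays were scanned in 4 runs. Scan 1 held the E14 arrays and E18 replicate 1, scan 2 held E18 replicates 2 and 3, scan 3 held P5 replicate 2, and scan 4 held P5 replicate 3 and the P56 arrays.

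Apolipoproteins are the protein part of the particles that carry lipids in blood, and the liver and intestine make most of them. Apolipoprotein B is the scaffold on which the liver builds very low density lipoprotein, and apolipoproteins A-I and A-II are the main proteins of high density lipoprotein. Smaller exchangeable members move between particles and set their fate: apolipoprotein C-II is the cofactor of lipoprotein lipase, C-III slows triglyceride clearance, A-V promotes it, and E is a ligand of the low density lipoprotein receptor family. Apolipoprotein H is a phospholipid-binding plasma protein that is named with this group but is unrelated to the others in structure.

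The probes below carry the comparisons that turn on where in a transcript the array reads, and are given 5′ to 3′ with the positions of the array design on mouse build mm7. Apoa1, Apoc3, Apoa4 and Apoa5 lie side by side on chromosome 9, and Apoe, Apoc1 and Apoc2 on chromosome 7. The Apoa1 probe lies at chr9:46187961-46188020 on the plus strand and the Apoe probe at chr7:17378757-17378816 on the minus strand.
Apoa1 A_51_P408082: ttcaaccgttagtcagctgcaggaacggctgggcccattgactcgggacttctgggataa
Apoe A_51_P171999: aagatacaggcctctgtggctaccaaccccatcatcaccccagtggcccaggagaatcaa

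The 5 Apob probes are shown because they gave different courses after birth. They lie on the plus strand of chromosome 12, and they follow here in order along that strand at chr12:7954595-7956804 (a probe whose position spans more than its length), chr12:7963823-7963882, chr12:7967854-7967913, chr12:7972247-7972306 and chr12:7972307-7972366. The last pair of probes abut.
Apob A_51_P436690: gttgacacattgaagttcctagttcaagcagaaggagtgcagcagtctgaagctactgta
Apob A_51_P413088: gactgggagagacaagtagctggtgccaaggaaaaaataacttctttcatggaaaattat
Apob A_51_P380650: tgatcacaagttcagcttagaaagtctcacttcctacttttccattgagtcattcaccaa
Apob A_51_P470542: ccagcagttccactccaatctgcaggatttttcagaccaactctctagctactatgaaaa
Apob A_52_P441070: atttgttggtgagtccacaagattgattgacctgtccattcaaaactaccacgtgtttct

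The Apoc3 probes, at chr9:46191403-46191462 and chr9:46191393-46191452 on the minus strand, share the 50 bases in capitals. They therefore repeat each other's measurement and are no independent reading of the gene.
Apoc3 A_52_P574306: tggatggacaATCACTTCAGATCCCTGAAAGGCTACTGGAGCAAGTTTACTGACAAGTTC
Apoc3 A_51_P310629: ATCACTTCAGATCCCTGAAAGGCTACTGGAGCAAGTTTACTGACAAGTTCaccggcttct

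From E14 to E18 nearly the whole group rose. Of the 10 genes, 9 were called higher and 0 lower, with a median log2 fold change of 1.97, where 47.4% of all genes were called, 24.6% higher and 22.8% lower, and the median of all genes was -0.01. The largest increase was that of Apoh and the smallest called increase that of Apoc3, and only Apoa4 was not called. After birth the courses parted. From E18 to P5, 3 genes were called higher and 0 lower, against 7.33% and 6.4% of all genes (13.7% in both directions), and the median over the members was -0.05. At an unadjusted p under 0.05 the limma counts were 4 higher and 3 lower, and the methods' t-test gave 0 in either direction after adjustment. From P5 to P56, 4 members were called higher and 4 lower, against 20.8% and 24.8% of all genes (45.6% in both directions). Between E18 and P56 the counts were 5 higher and 4 lower, against 31.2% and 33.6% of all genes (64.8%). Set against E14, all 10 members were higher at P56, with a median of 2.42, where 70.9% of all genes were called, 36.1% higher and 34.8% lower. Centring each array on its median in place of loess gave medians of all genes of -0.47 from P5 to P56, -0.42 from E18 to P56 and -0.33 from E14 to P56, where loess gave -0.02, -0.01 and 0.04, and moved the share of calls that were higher from 45.7% to 6.82%, from 48.2% to 14.9% and from 51.0% to 22.9%. These comparisons share arrays, so their counts are not separate evidence. The number of P5 arrays limits the comparisons with P5: the share of all genes called from E18 to P5, 13.7%, was 22.6% without P5 replicate 2, 5.6% without P5 replicate 3, 8.32% without E18 replicate 2 and 7.59% without E18 replicate 3.

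**Figure D1:**
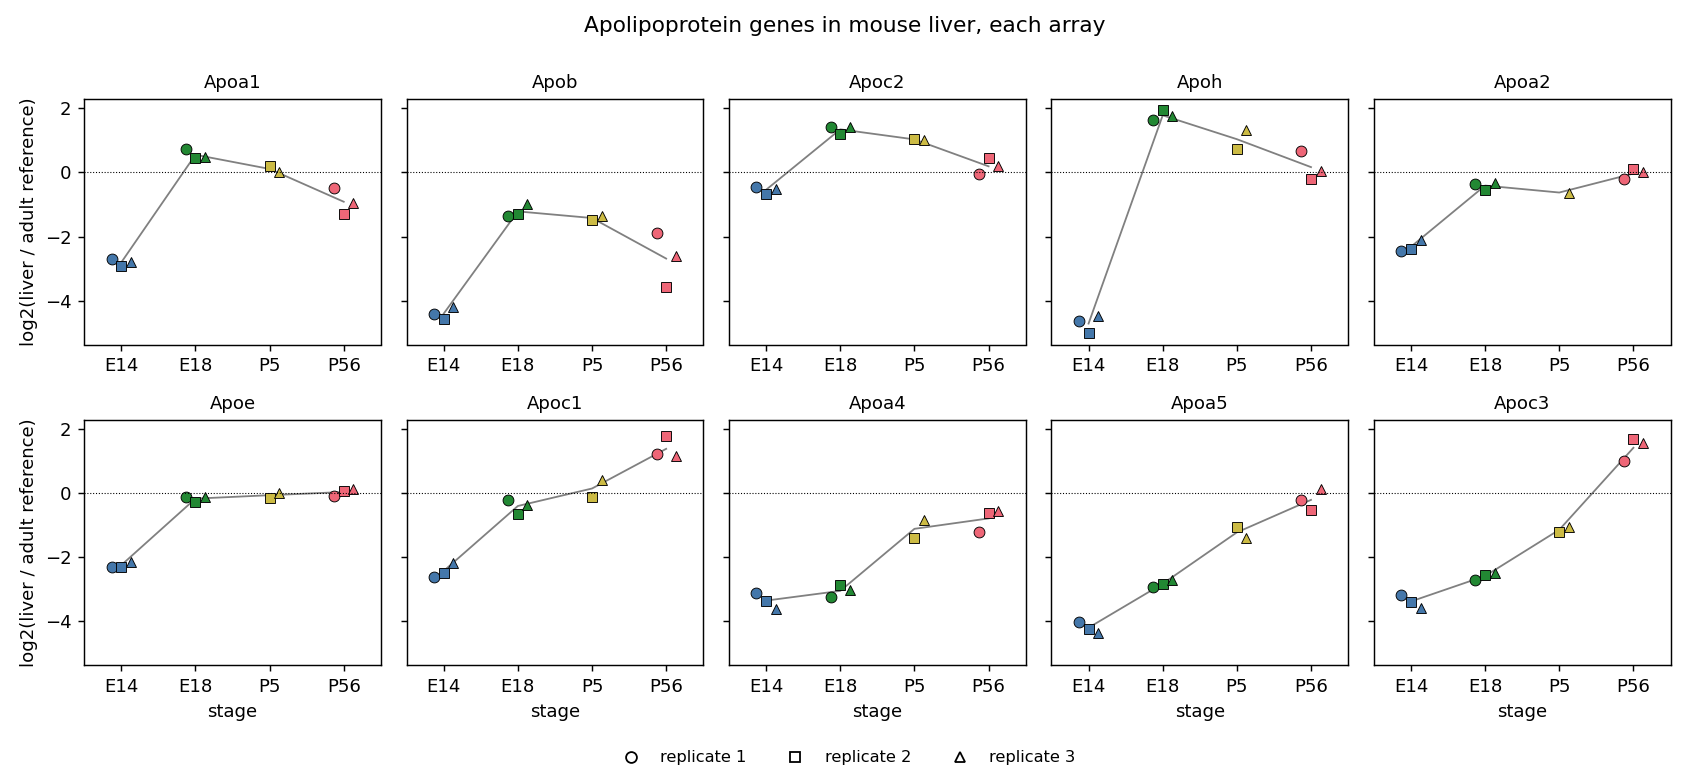
Log2 ratio of liver RNA to the adult reference (vertical axis) for each of the 10 genes on each of the 11 arrays, by stage (horizontal axis), 1 point per array, its shape giving the replicate, and a line through the stage means. Apoa1, Apob, Apoc2 and Apoh stand highest at E18 and lower at P56, Apoe and Apoa2 are near level after E14, and Apoa4, Apoa5, Apoc1 and Apoc3 stand higher at P56 than at E18.

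Among the proteins of high density lipoprotein, Apoa1 and Apoa2 both rose before birth and then took different courses. Apoa1, which activates the enzyme that esterifies plasma cholesterol, had log2 ratios of -2.69, -2.93 and -2.80 on the E14 arrays and 0.72, 0.45 and 0.48 on the E18 arrays. The P5 arrays had 0.20 and 0.02, followed by -0.49, -1.29 and -0.96 on those of P56. The E14 arrays were lowest, the E18 arrays highest, and no stages overlapped. Apoa1 rose by 3.36 on the log2 scale from E14 to E18 (SE 0.17, adjusted p = 3.45e-08), which is 10.2-fold. It fell by 1.02 from P5 to P56 (SE 0.19, adjusted p = 0.00108), and by 1.46 from E18 to P56 (SE 0.17, adjusted p = 1.47e-05). The step from E18 to P5 of -0.44 did not pass the test (adjusted p = 0.151), but passed it in the fit without P56 replicate 1 (adjusted p = 0.0431).

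Apoa2 had log2 ratios of -2.46, -2.39 and -2.11 at E14 and -0.36, -0.54 and -0.32 at E18. It had -0.63 on P5 replicate 3 and -0.22, 0.11 and 0.01 at P56, and its only spot on P5 replicate 2 was an outlier that the fit left out. E14 lay below every later array, and the later stages lay close together. The reference spot was saturated on every E14 and E18 array and on P56 replicates 2 and 3, which limits these ratios. The rise from E14 to E18 was 1.91 on the log2 scale (SE 0.13, adjusted p = 5.38e-07). The difference of 0.37 between E18 and P56 was called (SE 0.13, adjusted p = 0.0218), but not without E18 replicate 2 (adjusted p = 0.0853), P56 replicate 2 (adjusted p = 0.0755) or P56 replicate 3 (adjusted p = 0.0623). The difference of 0.59 between P5 and P56 rested on the single P5 value and was 0.39, with an adjusted p of 0.0741, when the outlier spot was kept.

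Apob, the scaffold of very low density lipoprotein, was represented by the most downstream of its probes. That probe had log2 ratios of -4.43, -4.58 and -4.19 at E14, -1.36, -1.30 and -0.99 at E18, -1.48 and -1.36 at P5, and -1.88, -3.57 and -2.61 at P56. Levels at E18 and P5 were next to each other, those at P56 lay below both, and those at E14 were lowest. The rise from E14 to E18 was 3.19 (SE 0.31, adjusted p = 6.47e-06), or 9.10-fold. Apob fell by 1.47 from E18 to P56 (SE 0.31, adjusted p = 0.00141), and from P5 to P56 it fell by 1.26 (SE 0.35, adjusted p = 0.0115), a call that was lost with the scan as a fixed block (-1.32, adjusted p = 0.0643). P56 replicate 2 lay lowest of the P56 arrays, and without it the differences were -1.03 from E18 and -0.82 from P5. On this probe the P56 ratios ran in the order of the Cy5 spots well above background. These numbered 23079, 20131 and 16790 on replicates 1, 3 and 2. Of the other members lower at P56 than at E18, Apoa1 and Apoh had P56 ratios in the same order, and Apoc2 in the opposite order. Without P56 replicate 2 their differences from E18 were -1.276, -1.433 and -1.275. The part of the spot counts in any of these falls was not tested.

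The Apob probes gave the same direction before birth and different courses after it. All 5 probes were called higher at E18 than at E14, by 1.18 to 3.23. From E18 to P5, the 3 upstream probes were called higher, by 0.71, 0.71 and 0.88, while the downstream pair gave -0.11 and -0.21 and were not called. From E18 to P56, A_51_P380650 gave 0.15 and was not called, and the other probes were called lower, with differences between -0.39 and -1.49. On A_51_P380650 the P56 arrays stood close together at -1.07, -1.04 and -1.13, against -1.88, -3.57 and -2.61 on the most downstream probe. A_51_P380650 was dim in the liver channel, with Cy5 signals of 127, 55 and 90 at P56. Before loess its P56 ratios were -1.73, -2.53 and -2.22. The liver signal as read, without normalization, was lower at P56 than at E18 on all 5 probes. That log2 difference was -1.32 on A_51_P380650 and reached -2.16 on A_51_P470542. With the mean of all 5 probes in place of the downstream one, Apob differed by 0.40 from E18 to P5 (adjusted p = 0.187) and by -0.78 from E18 to P56 (adjusted p = 0.00165). The size of the later fall depended on the probe read, and the cause of this was not tested.

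**Figure D2:**
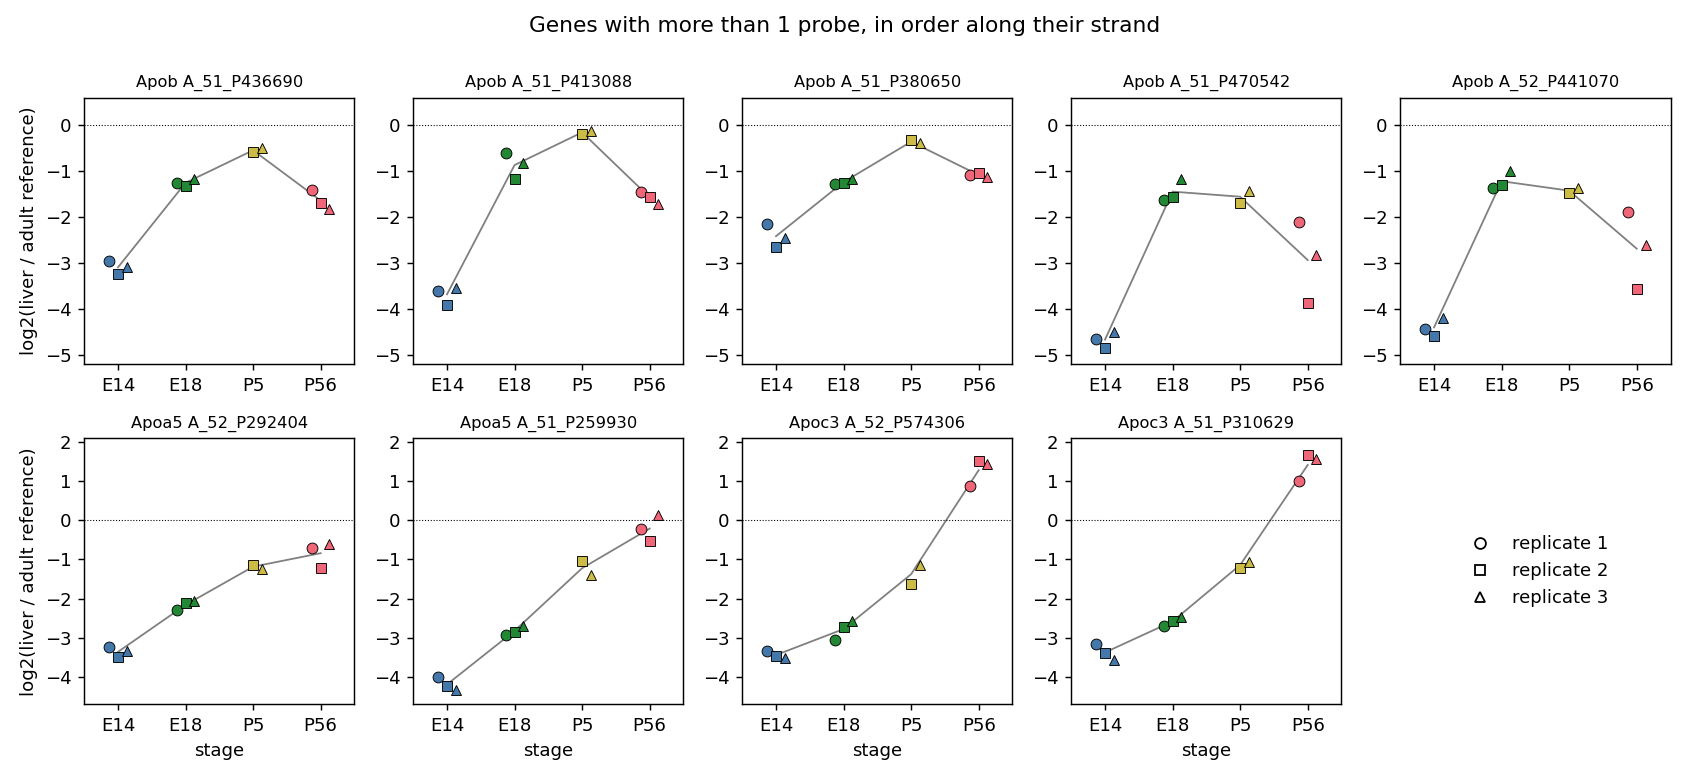
Log2 ratio to the adult reference (vertical axis) by stage (horizontal axis) for each probe of Apob, Apoa5 and Apoc3, with probes in order along their strand, points for arrays, shapes for replicates and lines through stage means. The 3 upstream Apob probes peak at P5, the downstream pair is near level from E18 to P5, and the overlapping Apoc3 probes run together.

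The regulators of lipoprotein lipase did not move together. Apoc2, the lipase cofactor, had log2 ratios of -0.46, -0.66 and -0.50 at E14, 1.42, 1.20 and 1.41 at E18, 1.05 and 1.01 at P5, and -0.06, 0.44 and 0.20 at P56. It was the member nearest the adult reference at E14, and its highest values were those of E18. Apoc2 rose by 1.88 from E14 to E18 (SE 0.13, adjusted p = 2.84e-07). It then fell by 0.84 from P5 to P56 (SE 0.14, adjusted p = 0.000532) and by 1.15 from E18 to P56 (SE 0.13, adjusted p = 9.04e-06), while E18 and P5 differed by -0.31, which was not called (adjusted p = 0.167). Even so, P56 stayed above E14 by 0.73 (adjusted p = 0.000261).

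Apoc3, the inhibitor, ran the other way after birth. Its log2 ratios were -3.17, -3.38 and -3.58 at E14, -2.71, -2.56 and -2.48 at E18, -1.22 and -1.06 at P5, and 1.00, 1.68 and 1.57 at P56. Each stage lay above the one before it with no overlap, and the P56 arrays lay above the reference. Apoc3 rose by 0.79 from E14 to E18 (SE 0.17, adjusted p = 0.00212), by 1.44 from E18 to P5 (SE 0.19, adjusted p = 0.000552) and by 2.56 from P5 to P56 (SE 0.19, adjusted p = 9.36e-07). From E18 to P56 the rise was 4.00 (SE 0.17, adjusted p = 4.61e-09), or 16.0-fold, the largest of the members over that interval. The early step was 0.67 with an adjusted p of 0.0624 when the scan was a fixed block. Between E18 and P56 the Apoc2 ratio was thus lower and the Apoc3 ratio higher, each by its own test, and no test of the ratio between the pair was run.

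Apoa5, the promoter of triglyceride clearance, rose at every stage. The chosen probe had log2 ratios of -4.01, -4.22 and -4.35 at E14, -2.94, -2.84 and -2.69 at E18, -1.05 and -1.40 at P5, and -0.23, -0.53 and 0.13 at P56. No stages overlapped. Its steps were 1.37 from E14 to E18 (SE 0.16, adjusted p = 3.24e-05), 1.60 from E18 to P5 (SE 0.18, adjusted p = 0.000235) and 1.01 from P5 to P56 (SE 0.18, adjusted p = 0.00083). The other Apoa5 probe had -3.24, -3.50 and -3.35 at E14, -2.30, -2.12 and -2.07 at E18, -1.13 and -1.24 at P5, and -0.71, -1.21 and -0.60 at P56. It gave the same order of stage means with P5 and P56 overlapping, and its last step of 0.34 was not called (adjusted p = 0.111). From E18 to P56 the probes gave 2.61 and 1.32.

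Apoa4, best known as a protein of intestinal lipoproteins, was the only member with no called change before birth. Its log2 ratios were -3.10, -3.35 and -3.60 at E14 and -3.23, -2.88 and -3.03 at E18, and these stages overlapped. The difference was 0.30, with a 95% interval of -0.13 to 0.74 (adjusted p = 0.239). Its liver signals were low, with Cy5 readings of 103, 121 and 102 at E14 and 135, 128 and 151 at E18. This limits what the lack of a call can show. At P5 the ratios were -1.38 and -0.84, and at P56 they were -1.20, -0.62 and -0.55. The P5 arrays lay above all embryonic arrays and overlapped those of P56. Apoa4 rose by 1.93 from E18 to P5 (SE 0.22, adjusted p = 0.000242). The P5 and P56 means did not differ beyond their spread (0.33, adjusted p = 0.258), although the fit without P56 replicate 1 called 0.53 (adjusted p = 0.0487) and median centring in place of loess turned it to -0.56 (adjusted p = 0.0397), where the median of all genes was -0.47.

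Apoe and Apoc1, which lie next to each other, both rose before birth, and both were limited by the scanner's ceiling. The reference channel reached it at E14, on most E18 arrays and on some arrays after birth, and the liver channel after birth. Apoe, the receptor ligand, had log2 ratios of -2.31, -2.29 and -2.13 at E14, -0.11, -0.29 and -0.11 at E18, -0.14 and 0.01 at P5, and -0.08, 0.07 and 0.12 at P56. All E14 arrays lay below the others, and the later stages lay close together. Apoe rose by 2.07 from E14 to E18 (SE 0.10, adjusted p = 2.33e-08). It differed by 0.11 from E18 to P5 (adjusted p = 0.567), by 0.10 from P5 to P56 (adjusted p = 0.492) and by 0.21 from E18 to P56 (adjusted p = 0.0869), none of them called, though the last reached 0.26 with an adjusted p of 0.0484 without P56 replicate 1.

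Apoc1, an exchangeable protein that inhibits several lipid-handling enzymes, had log2 ratios of -2.60, -2.49 and -2.18 at E14 and -0.20, -0.64 and -0.36 at E18. At P5 they were -0.13 and 0.42, and at P56 1.21, 1.78 and 1.15. The P56 arrays lay above all others, and no stages overlapped. The rise from E14 to E18 was 2.02 (SE 0.20, adjusted p = 6.44e-06). The difference of 0.55 between E18 and P5 was not called (adjusted p = 0.128), but was called without P5 replicate 2 (0.82, adjusted p = 0.0377) and with median centring in place of loess (0.99, adjusted p = 0.0275). From P5 to P56 the ratio rose by 1.24 (SE 0.22, adjusted p = 0.000806), but the Cy5 spot was saturated on every P5 and P56 array, so no fold is given for that step and the liver channel alone gave 0.18 (adjusted p = 0.27). The Cy5 signal as read was 65535 on each P56 array, against 46445, 39436 and 48457 at E18. Over 3 readings of that channel (signals as read, the Cy5 fit, and signals after loess and quantile scaling of mean intensity), P56 was higher than E18 by at least 1.47-fold, the lowest of them, with an adjusted p of 9.97e-06 for the ratio, and higher than E14 by at least 4.17-fold (adjusted p = 9.63e-09 for the ratio).

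Apoh made the largest step of the group. Its log2 ratios were -4.63, -5.02 and -4.49 at E14 and 1.65, 1.93 and 1.76 at E18. At P5 they were 0.74 and 1.33, and at P56 0.66, -0.20 and 0.03. The E14 arrays were lowest, the E18 arrays highest, and no stages overlapped. The rise from E14 to E18 was 6.49 (SE 0.22, adjusted p = 2.45e-09), or 90.0-fold on the ratio. Apoh then fell by 0.87 from P5 to P56 (SE 0.25, adjusted p = 0.0133), a call lost without P5 replicate 3 (-0.58, adjusted p = 0.116) and on the liver channel alone (-0.37, adjusted p = 0.137), and by 1.61 from E18 to P56 (SE 0.22, adjusted p = 5.35e-05). The step of -0.74 from E18 to P5 missed the threshold (adjusted p = 0.0688) and passed it without P56 replicate 1 (adjusted p = 0.0219) or P56 replicate 2 (adjusted p = 0.0477).

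**Figure D3:**
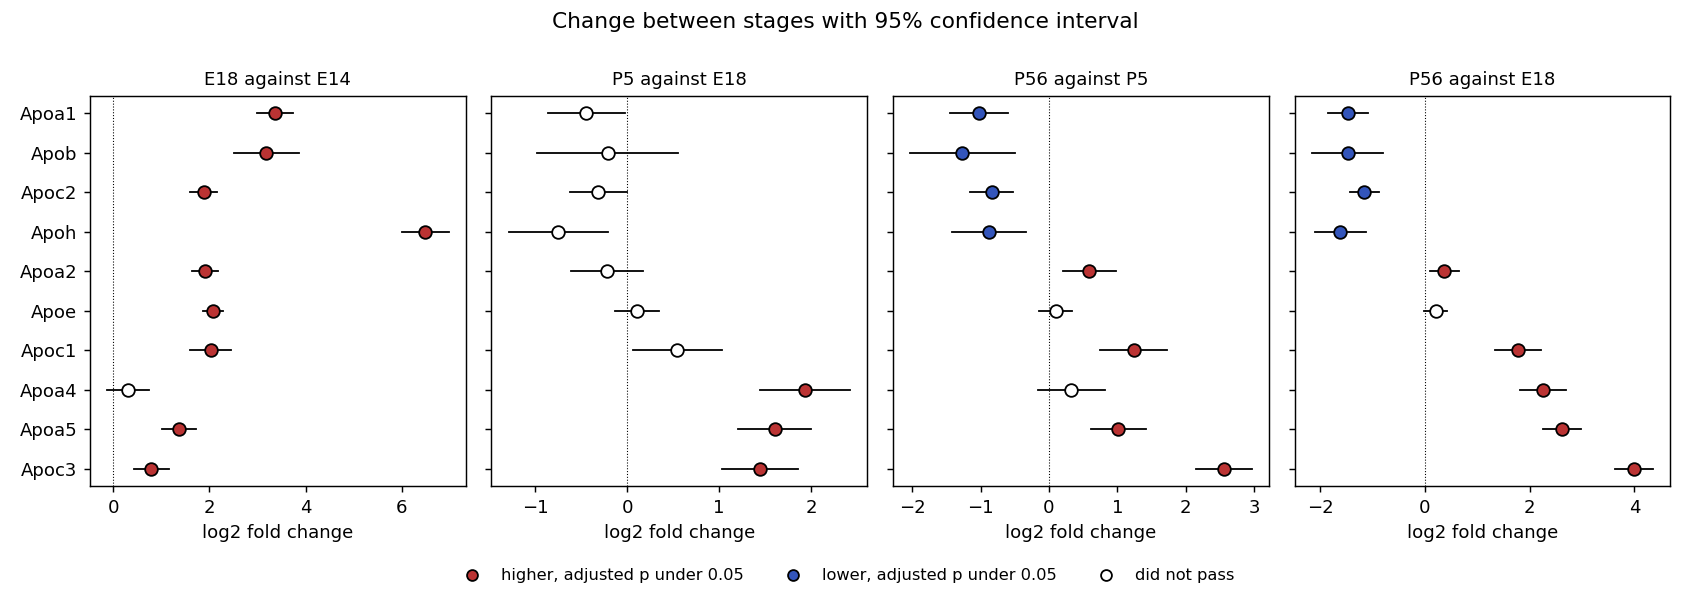
Log2 fold change of each of the 10 genes (horizontal axes, scaled separately in each panel) with its 95% interval, for 4 comparisons between stages, red where called higher, blue where called lower and open where not called. From E14 to E18 every interval but that of Apoa4 lies above 0, and from E18 to P56 Apoa1, Apob, Apoc2 and Apoh lie below 0.

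The reference channel held the same RNA on every array, yet its signal moved for some probes. The Cy3 signals of the Apoh probe as read by the scanner were 44217, 63988 and 64757 on the E14 arrays and 25382, 16974 and 20021 on the E18 arrays. They were lower at E18 by a log2 difference of -1.47, where the median over all probes tested was 0.10 and 0.421% of probes differed by more than 1. On this scale the Apoa1 and Apoc2 references differed by -0.16 and -0.26, and those of Apoe, Apoc1 and Apoa2, at the ceiling on every E14 array, cannot be read. A fit of the liver channel alone leaves the reference out, and in it Apoh rose by 4.73 from E14 to E18 (adjusted p = 1.4e-08), or 26.5-fold, where the ratio gave 90.0-fold. The liver spot was saturated on E18 replicates 1 and 3 and the reference spot on E14 replicate 3, so saturation can only have lowered both folds. Apoh fell by 0.46 from E18 to P56 on the liver channel (adjusted p = 0.0382). The Apoc1 reference signals were 65535, 62117 and 65535 at E18 and 25668, 35633 and 34557 at P56, and the liver channel alone gave 0.58 from E18 to P56 (adjusted p = 0.000908) in place of 1.78.

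Saturation touched Apoa2, Apoc1, Apoe and Apoh, and no probe of the other members. The scanner files give 65502 as the saturation value. The members held 42 of the 414 saturated Cy5 spots of all arrays and 96 of the 498 saturated Cy3 spots, that is 10.1% and 19.3%. Apoe was saturated in Cy5 in all of its 10 spots on the P5 arrays and on P56 replicate 1, Apoh on E18 replicates 1 and 3 and P5 replicate 2, and Apoa2 on P5 replicate 2. The reference channel was saturated for Apoe, Apoc1 and Apoa2 on every E14 array, and for Apoa2 also on every E18 array. For Apoe and Apoc1 it was saturated on E18 replicates 1 and 3 (Apoe also in 2 of its 10 spots on replicate 2). The rises of these genes from E14 to E18 were thus measured against a reference at the ceiling. After birth it was saturated for Apoe and Apoa2 on P5 replicate 2 and P56 replicates 2 and 3, and for Apoc1 on P5 replicate 2. Later ratios of Apoe and Apoa2 therefore also rest in part on a reference at the ceiling. A saturated liver spot gives a lower limit of the ratio and a saturated reference spot an upper limit, so Apoe at P5 was at least 1.03-fold its level at E18 on the liver channel, the lowest of the same readings (adjusted p = 0.567 for the ratio), and no fold is given between P5 and P56. Apoa1 had 10 spots, none of them saturated on any array.

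**Figure D4:**
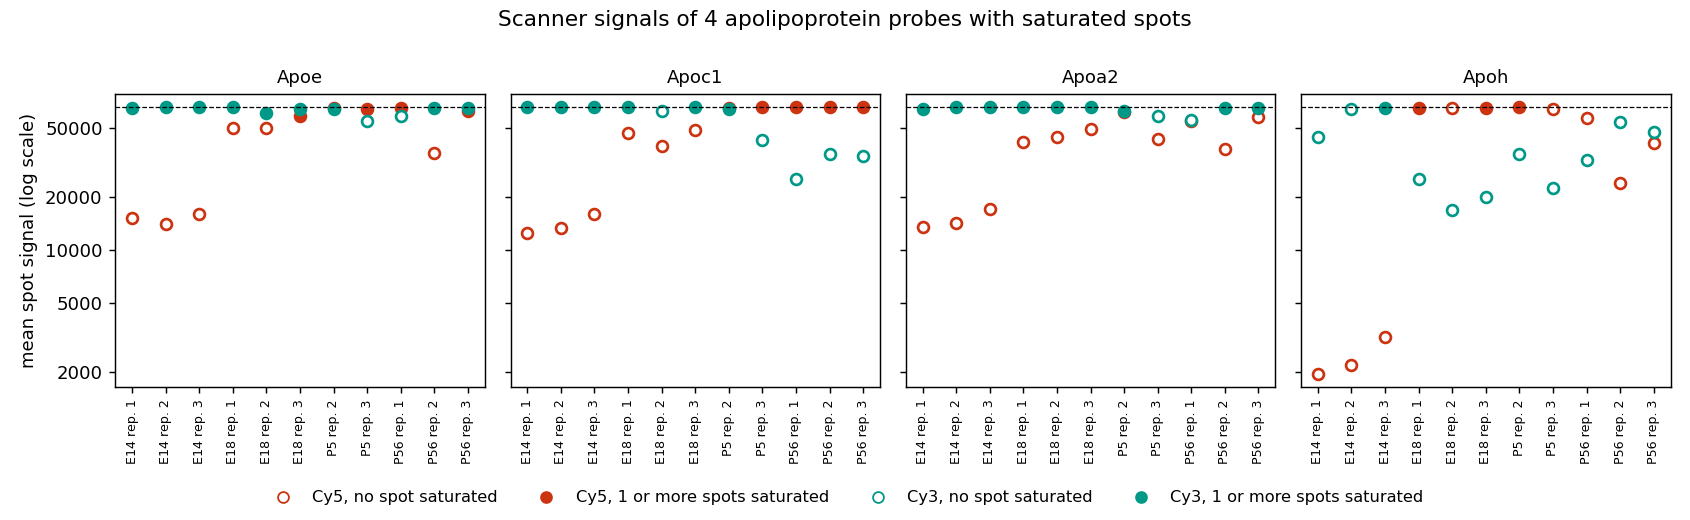
Mean scanner signal per array (vertical axis, log scale) of the Apoe, Apoc1, Apoa2 and Apoh probes in Cy5 (liver) and Cy3 (reference), with arrays on the horizontal axis, filled points where 1 or more spots were saturated and a dashed line at 65502. The Apoh reference signal is lower at E18 than at E14, and the Apoc1 liver signal is near or at the line on every P5 and P56 array.

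Comparisons within a scan had the same directions as the fit, but they reuse its arrays and are no separate evidence. Each rests on a single array of E18 or of P5. For Apoa2 the difference in scan 4 is that of the fit, since P5 replicate 3 was its only P5 value. In scan 1, E18 replicate 1 exceeded the mean of the E14 arrays for all 10 members, by 0.12 for Apoa4, 0.67 for Apoc3 and up to 6.36 for Apoh. In scan 4, the mean of the P56 arrays minus P5 replicate 3 was -0.93 for Apoa1, -1.32 for Apob, -0.82 for Apoc2 and -1.16 for Apoh, and 0.59 for Apoa2, 1.19 for Apoa5, 0.96 for Apoc1 and 2.47 for Apoc3. Apoa4 and Apoe stood at 0.05 and 0.02. The step from E18 to P5 and that from E18 to P56 lie between scans, where scan and stage cannot be told apart.

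Apoa1 took another course than its neighbours after birth. On chromosome 9, within positions 46187961 to 46229185, Apoa1 was 1.46 lower at P56 than at E18 on the log2 scale, while Apoc3, Apoa4 and Apoa5 were higher by 4.00, 2.26 and 2.61. The Apoa4 rise was 1.39 with median centring in place of loess, where the median of all genes was -0.42. The other Apoa5 probe gave a smaller rise than the chosen one. Over the 11 arrays the Pearson correlation of Apoa1 with Apoc3 was 0.223, and that of Apoa1 with Apob, on another chromosome, was 0.979. Apoa5 had correlations of 0.949 with Apoc3 and 0.941 with Apoa4. On chromosome 7, Apoc2 was lower at P56 than at E18, Apoc1 higher, and Apoe not called. These correlations describe 11 arrays that share a reference and the stage order, and they are no test.

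The windows of 250 bases upstream of the RefSeq start (build GRCm38.p6) are given for Apoa1, an early gene of the chromosome 9 cluster, Apoa5, a late one, and Apoh, the gene with the largest rise. They were searched on both strands for AGGTCA (the core bound by nuclear receptors), CAAAGTCCA (a form of the HNF4 site), GTTAAT (the HNF1 core) and TATAAA (the TATA box). Of 32817 such windows of all genes, 14% held AGGTCA, 0.384% CAAAGTCCA, 6.44% GTTAAT and 12.4% TATAAA. Matches are in capitals. TATAAA begins 31 bases upstream of the start of the Apoa5 window shown. Another Apoa5 window, chr9:46268383-46268632, holds TATAAA 56 bases upstream of its own start. TGACCT, the reverse strand of AGGTCA, lies 215 bases upstream of the Apoh start, and none of the letters searched for are in the Apoa1 window.
Apoa1 upstream window, chr9:46228380-46228629, plus strand: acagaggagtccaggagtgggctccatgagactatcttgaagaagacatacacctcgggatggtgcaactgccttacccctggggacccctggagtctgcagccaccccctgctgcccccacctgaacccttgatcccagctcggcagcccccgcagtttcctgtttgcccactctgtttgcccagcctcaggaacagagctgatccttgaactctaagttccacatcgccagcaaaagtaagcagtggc
Apoa5 upstream window, chr9:46268358-46268607, plus strand: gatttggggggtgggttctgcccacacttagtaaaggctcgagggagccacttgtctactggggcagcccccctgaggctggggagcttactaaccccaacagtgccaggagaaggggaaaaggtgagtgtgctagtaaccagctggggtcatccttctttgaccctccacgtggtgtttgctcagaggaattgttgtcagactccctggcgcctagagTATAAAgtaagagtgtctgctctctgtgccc
Apoh upstream window, chr11:108395047-108395296, plus strand: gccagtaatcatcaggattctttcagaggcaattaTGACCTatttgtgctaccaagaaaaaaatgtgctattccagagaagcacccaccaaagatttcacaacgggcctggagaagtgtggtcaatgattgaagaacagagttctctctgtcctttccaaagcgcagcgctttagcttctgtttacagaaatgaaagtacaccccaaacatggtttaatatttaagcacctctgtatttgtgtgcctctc

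Of the members, 8 had such a window, with 12 windows in all, and Apoc1 and Apoc3 had none. A gene is listed here if any of its windows held the letters, whereas the shares above count single windows. AGGTCA was found for Apoa2, Apoc2 and Apoh, GTTAAT for Apoc2 and Apoe, TATAAA for Apoa2, Apoa5, Apob and Apoe, and CAAAGTCCA for none of them. The matches were not set against the courses, since a match is only a run of letters.

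Genes whose products build, remodel or receive lipoproteins mostly rose between E14 and E18. Over 5 lists with 66 tested genes, 50 were called higher and 0 lower from E14 to E18 by limma, with 1 lower at an unadjusted p under 0.05, and the median was 1.12. This is 75.8% of them higher, where 24.6% of all genes were. From E18 to P5 the counts were 14 higher and 5 lower (21.2% and 7.58%, against 7.33% and 6.4% of all genes), and from E18 to P56 28 higher and 18 lower (42.4% and 27.3%, against 31.2% and 33.6% of all genes), with a median of 0.18. Of the 12 genes of particle assembly and secretion, 9 rose before birth, among them Dgat2, a triglyceride-forming enzyme (2.23, adjusted p = 2.40e-07), P4hb, a subunit of the transfer protein that loads apolipoprotein B (1.66), and Cideb, of lipid loading (1.23). Between E18 and P5, 0 of the 12 were called by limma, and 3 were higher and 1 lower at an unadjusted p under 0.05. At P56, 6 were higher and 3 lower than at E18, with Sar1b, of vesicle transport, higher by 1.99, Dgat2 by 1.58 and Tm6sf2 by 1.00.

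All 10 genes of plasma remodeling rose from E14 to E18, where 24.6% of all genes were called higher. Pon1, an esterase carried on high density lipoprotein, rose by 4.07 and then by 2.49 from E18 to P56 (adjusted p = 2.05e-08). Lpl, the lipase that Apoc2 serves, rose by 3.78 before birth and fell by 4.94 from E18 to P56 (adjusted p = 7.45e-10). Later, between E18 and P56, 3 genes of the list were higher, Gpihbp1, the anchor of the lipase on capillaries, among them at 1.62, and 3 were lower. Of all genes, 31.2% were higher and 33.6% lower over that interval. The Lpl ratio averaged 2.01 ± 0.18 (SD, n = 3) at E18 and -2.93 ± 0.24 (SD, n = 3) at P56, so Lpl was lower with Apoc2 while Apoc3 was higher.

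Of 16 receptors and lipid transporters, 9 rose and 0 fell from E14 to E18, and 4 were higher and 7 lower from E18 to P56. Over all genes, 24.6% rose and 22.8% fell in the first interval, and 31.2% were higher and 33.6% lower in the second. Abca1, which loads lipid onto apolipoprotein A-I, rose by 2.53 and then fell by 1.79 (adjusted p = 5.74e-06), Abcg1 and Lrp1 rose by 1.68 each before birth, Abcg5, a sterol exporter, rose by 1.89 from E18 to P56, and Sort1 fell by 1.68. Of 9 other apolipoproteins, 8 rose before birth and 6 were higher and 2 lower at P56 than at E18. Apof rose by 4.33 and Apom by 1.28 from E14 to E18. Apoc4, the neighbour of Apoc2, rose by 2.72 before birth and, unlike Apoc2, again by 2.48 from E18 to P56 (adjusted p = 2.29e-05), while Saa4 rose by 2.69 and Apon by 1.69.

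Of 19 transcription factors known from apolipoprotein promoters, 14 rose and 0 fell from E14 to E18, and 9 were higher and 3 lower from E18 to P56. The shares of all genes were 24.6% and 22.8% in the first interval, and 31.2% and 33.6% in the second. Nr1h4, the bile acid receptor, rose by 2.35 and again by 1.30, Cebpa rose by 2.31 and Rora by 2.16 before birth, and Cebpb and Nr1h3 rose by 1.61 and 1.55 from E18 to P56.

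**Figure D5:**
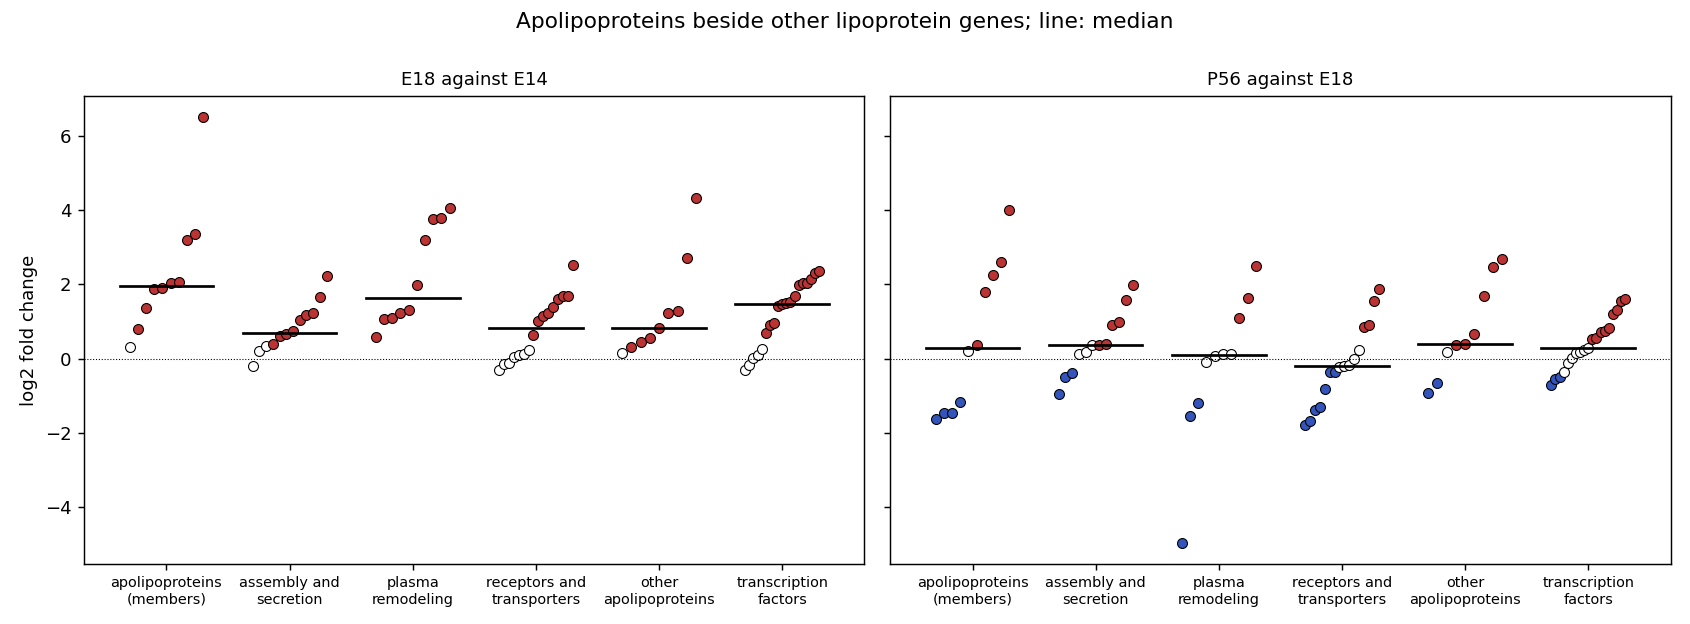
Log2 fold change of each tested gene (points) in the member group and the lipoprotein lists (horizontal axis), red where called higher, blue where called lower and open where not called, with a line at each list's median, from E14 to E18 (left) and from E18 to P56 (right). Every called point lies above 0 from E14 to E18, where the member median is 1.97, and points spread to both sides of 0 from E18 to P56, where it is 0.29.

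Markers of liver cell types moved over the same intervals, and their part in the results was not tested. Over all genes, 24.6% were higher and 22.8% lower from E14 to E18, and 31.2% and 33.6% from E18 to P56. Of 12 hepatocyte markers, 11 were higher at E18 than at E14 with a median of 3.35, and their mean log2 ratio per array ranged from -2.50 to -2.36 at E14, 0.66 to 0.79 at E18, 0.17 to 0.25 at P5 and -1.0 to -0.46 at P56. Of these, 9 were lower from E18 to P56 and 2 higher, with a median of -1.64, which is on the side of Apoa1, Apob, Apoc2 and Apoh and opposite to Apoc3, Apoa4, Apoa5 and Apoc1. Of 12 erythroid markers, 3 were higher and 2 lower from E14 to E18. Their means were 3.11 to 3.24 at E14, 3.22 to 3.37 at E18 and 2.46 to 3.04 at P5. Red cell transcripts thus stood above the adult reference at both embryonic stages and at P5. From P5 to P56 all 12 were lower, with a median of -2.73, where 24.8% of all genes were lower. All 12 were lower at P56 than at E18, with a median of -3.30 and means of -0.20 to 0.07 at P56.

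All 11 macrophage markers were higher at E18 than at E14, with a median of 1.21, and from E18 to P56 6 were lower and 1 higher. Their mean ratio ranged from -2.85 to -2.46 at E14, -1.52 to -1.26 at E18, -1.08 to -0.93 at P5 and -2.11 to -1.50 at P56, so they stood highest at P5. Of 8 endothelial markers, 5 were higher at E18 and 6 lower at P56 than at E18. Of 8 stellate markers, 2 were higher and 2 lower at E18, and 1 was higher and 6 were lower at P56. Of 6 biliary markers, 4 were higher at E18 and 5 lower at P56. Over all genes, 24.6% were higher at E18 than at E14, and 33.6% were lower at P56 than at E18.

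The genes whose ratios were most like a member's over the 11 arrays, by Pearson correlation, were Acadm (0.998) and F11 (0.997) for Apoa1, Mcfd2 (0.991) and Vkorc1 (0.989) for Apoa2, and 1810009M01Rik (0.990) and Acadm (0.985) for Apob. For Apoc2 they were Cybb (0.993) and Cd5l (0.988), both known from macrophages. The macrophage markers above stood highest at P5, however, and Apoc2 at E18. For Apoc3 they included D9Ucla1 (0.996) and Esrra (0.995), and for Apoa4 Spnb3 (0.995). For Apoe they were C87436 (0.997) and F13b (0.996), for Apoh Pkp2 (0.996) and Proc (0.994), for Apoc1 1190003J15Rik (0.991) and Mosc1 (0.989), and for Apoa5 LOC233005 (0.991). All these arrays share a reference and the order of stages, and the likeness is a description only.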

How the data were processed

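The authors deposited Agilent Feature Extraction 9.5.1.1 scanner files (GenePix 4000B) with mean and background intensity of both dyes, and a gene table of log2 ratios whose centring is not stated. The authors normalized with limma. Here spot intensity was corrected by normexp (offset 50), normalized by loess within each array, and averaged per probe, with control and outlier spots left out and saturated spots kept. A probe was kept if its liver signal passed the scanner's background test throughout at least 1 stage and if no stage lacked it on more than 1 array, which left 23523 probes. Each gene was read from its probe with the fewest saturated spots, ties going to the brighter, and fitted over all 11 arrays (limma 3.58.1, R 4.3.3, threshold 0.05). The fit was tested on simulated data. List genes were named by the 3 largest called changes per list, from E14 to E18 and from E18 to P56, and 1 gene that this rule names is not reported here. Sequences came from the array files and RefSeq, and figures from Python 3.11.15 and matplotlib 3.10.9. Members and lists were chosen with earlier results of these data known. Alternatives changed the background correction, normalization, filters, probe choice, scan block, replicate block and test, or left out each array. The p-values measure the spread between these arrays, and their number limits precision.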

Additional observations from a re-analysis of the deposited data

How the results depend on the processing

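For single members, under settings other than leaving out an array, 863 results kept their call or lack of one, and 30 lost a call. Another 1 gained a call and 1 reversed with a call. A change of sign was not counted where neither fit called the gene. An example is Apob from E18 to P5, at -0.21 as reported and 0.40 with the mean of all probes. From E14 to E18, the median log2 fold change was 1.546 on the Cy5 channel alone, 1.638 without saturated spots (5 of 6 genes higher) and 1.672 with median centring, beside 1.97. The median from P5 to P56, 0.21 as reported, reversed to -0.371 with median centring (2 higher) and to -0.282 without saturated spots (2 higher), and was 0.038 with the scan as a fixed block. Apoa4 reversed from 0.33 to -0.562 between P5 and P56 with median centring (adjusted p = 0.0397), where the median of all genes was -0.47. From E18 to P5 the median was 0.506 with median centring, 0.637 without saturated spots, 0.252 with the mean of all probes, 0.107 with probes valued on every array and 0.267 in the authors' table. It was 0.455 with median centring and 0.545 without saturated spots (3 higher) from E18 to P56. Against E14, P56 gave 2.917 with the scanner's processed signals, 2.809 in the authors' table, 2.025 on Cy5 alone, 2.125 with median centring and 2.223 without saturated spots (6 higher).

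The share of all genes called moved with the filter and the table. Without the filter on dim probes it was 28.5% from E14 to E18, 7.69% from E18 to P5, 26.5% from P5 to P56, 40.2% from E18 to P56 and 43.5% from E14 to P56. In the authors' table it was 17.1%, 1.04%, 18.0%, 30.3% and 36.2% in the same order, with 2 members higher from P5 to P56. It was 8.84% from E18 to P5 with median centring, and from P5 to P56 it was 28.0% with the scan as a fixed block and 29.9% with only the arrays of both stages, where 2 members were lower. The methods' t-test called 0.365% from E18 to P5 and 1.74% from P5 to P56, with 0 members higher, 0 lower and 0 of their probes called in either, against 8 and 13 probes by limma. Unadjusted, it gave 3 members higher and 2 lower in each. The lipoprotein lists had 19 genes called from E18 to P5, but 12 with processed signals, 6 in the authors' table and 2 by the t-test, and 31 from P5 to P56, but 20 with the scan block, 20 with only both stages, 19 in the authors' table and 2 by the t-test.

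Leaving out 1 array at a time gave 8 to 9 members higher and 0 lower from E14 to E18 (median 1.903 to 2.071, 38.9% to 50.8% of genes, 46 to 51 list genes, 14 to 15 probes). From E18 to P5 it gave 3 to 4 higher and 0 to 2 lower (-0.1 to 0.03, 5.6% to 22.6%, 11 to 24, 7 to 10). From P5 to P56 it gave 3 to 5 higher and 3 to 4 lower (0.038 to 0.344, 28.4% to 49.2%, 19 to 36, 11 to 14). From E18 to P56 it gave 4 to 6 higher and 4 lower (0.206 to 0.365, 58.3% to 66.4%, 41 to 46, 12 to 14), and from E14 to P56 9 to 10 higher and 0 lower (2.351 to 2.571, 65.1% to 72.3%, 55 to 58, 15 to 16). Outside the t-test, calls were lost for Apoa2 from P5 to P56 (median centring, processed signals, outlier spots kept, only both stages, authors' table) and from E18 to P56 (scan as a random block, adjusted p = 0.0563, and authors' table), for Apoa5 from E18 to P5 (authors' table, adjusted p = 0.0503) and from P5 to P56 (median centring and authors' table), for Apob from P5 to P56 (scan as a fixed block and only both stages), for Apoc1 from P5 to P56 (Cy5 alone), for Apoc3 from E14 to E18 (scan as a fixed block), and for Apoh from P5 to P56 (only both stages, Cy5 alone, authors' table). Same-numbered arrays of different stages correlated in their deviations at -0.31 to 0.19 with a median of -0.03 over 15 pairs. Arrays with different numbers correlated at -0.46 to 0.46 with a median of 0.02 over 30 pairs. Deviations from a stage mean are tied to each other, and those of the P5 arrays mirror each other. The check therefore cannot show that the arrays are unpaired. With the replicate number as a block, the E14 to E18 median was 1.97, with 9 members higher, and no call on a member changed. Dropping P56 replicate 2, and a loess fit without the members and hepatocyte markers, were looked at after the data were seen, and the latter changed no call. Saturation of Apoc1, Apoe, Apoa2 and Apoh and the number of P5 arrays limit what these arrays can show.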
